A study of Caenorhabditis elegans with 12 samples.

Results

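The nuclear lamina and inner nuclear envelope of the nematode Caenorhabditis elegans are described here through 7 genes, lmn-1, emr-1, lem-2, baf-1, unc-84, sun-1 and zyg-12. They were found by gene name among the 20257 genes of the deposited expression files, and all 7 passed the filter on low values. RNA was sequenced from whole worms in 12 libraries, 3 for each of 4 groups. WT worms of the strain N2 and worms carrying glp-1(e2141), all fed E. coli OP50 and raised at 25 °C, were collected on day 1 of adulthood (D1) or day 6 (D6). D6 worms of both genotypes had been moved to a lower temperature after D1. The study's treatment protocol gives 20 °C, while the labels of D6 replicates 1, 2 and 3 give 20, 21 and 22 °C in both genotypes. Age and the temperature shift therefore cannot be told apart in any comparison of D6 with D1. The e2141 allele is a temperature-sensitive missense allele of the germline Notch receptor, and hermaphrodites raised at the restrictive temperature have almost no germ cells. The labels do not state that each replicate was a culture of its own, and p-values here cover no more than the spread among the 3 libraries of a group, which could be technical.

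Lamins are intermediate filament proteins that form a meshwork beneath the inner nuclear membrane, and C. elegans makes them from the lmn-1 gene alone. LEM-domain proteins of the inner membrane bind the lamina and BAF, a small DNA-binding protein that ties chromatin to the envelope and helps it to reassemble after mitosis. SUN proteins of the inner membrane and KASH proteins of the outer membrane join across the perinuclear space as LINC complexes, which connect the nucleus to the cytoskeleton. In worms UNC-84 serves as the SUN protein of somatic cells, where its KASH partners UNC-83 and ANC-1 move and anchor nuclei. SUN-1 and the KASH protein ZYG-12 act in the germline and early embryo, where they hold centrosomes at the nucleus and couple chromosome pairing centres to dynein during meiosis.

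The estimated depth was 16.9 to 19 M fragments per library, and replicates of a group had Spearman correlations of 0.967 to 0.978 across genes. FPKM is a count of fragments scaled to transcript length and to the fragments mapped in a library, so its levels can be set beside each other between genes. The transcript of glp-1 itself had a mean of 66.7 ± 2.16 FPKM in WT and 3.32 ± 0.0981 FPKM in glp-1 at D1 (SD, n = 3 each). It had 97.9 ± 1.23 and 6.09 ± 0.626 FPKM at D6, which describes a germline transcript and does not check a missense allele. All 30 germline genes of a marker list were lower in glp-1 at both ages, and 19 of 20 muscle genes and 19 (D1) or 20 (D6) of 22 neuronal genes were higher. Over all genes tested for a difference, 48.1% were lower and 41.3% higher at D1, and 45.4% lower and 44.4% higher at D6. In whole worms, fewer cells of a type and less RNA per cell cannot be told apart, and FPKM of each gene is a share of the RNA of all tissues.

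lmn-1, the lamin gene (WBGene00003052), lies on chromosome I at 8763041 to 8765631 of WBcel235, plus strand, with 6 exons and 566 codons. Its level in WT at D1 was 215, 210.1 and 217 FPKM in replicates 1, 2 and 3, and at D6 it was 275, 269 and 266 FPKM. In glp-1 the level was 51.4, 48.6 and 50.7 FPKM at D1 and 50.4, 50.01 and 49.9 FPKM at D6. Every glp-1 library lay far below every WT library, and the 6 glp-1 libraries spanned a narrow range with no separation by age. The log2 difference of glp-1 from WT was -2.07 (SE 0.05, adjusted p = 2.84e-13) at D1 and -2.41 (SE 0.05, adjusted p = 1.11e-13) at D6 by limma with Benjamini-Hochberg adjustment over all genes tested. Differences and their tests are on the log2(FPKM + 1) scale throughout. In FPKM, lmn-1 in WT was 4.26 times its glp-1 level at D1 and 5.39 times at D6.

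**Figure D1:**
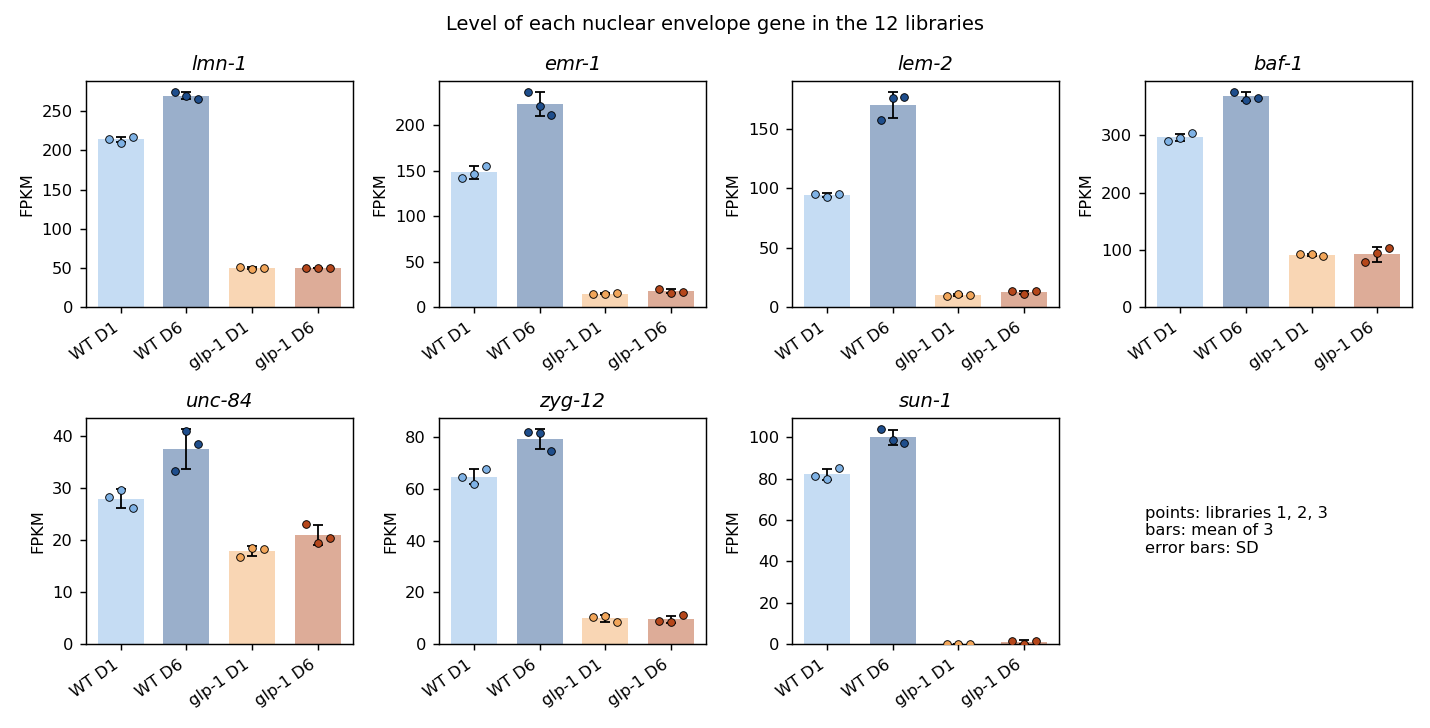
Level of each of the 7 genes in every library, in FPKM on a linear axis, by group of 3 replicates, with group means as bars and SD as error bars. The glp-1 points of all 7 genes lie below the WT points at both ages, least far for unc-84 and farthest for sun-1, which was listed at 0 in 1 glp-1 library at D1. How many of all genes were separated in this way was not counted.

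emr-1 encodes emerin (WBGene00001309; chromosome I, 1842445 to 1843227, plus strand, 4 exons, 166 codons), a LEM-domain protein of the inner membrane whose human ortholog is mutated in Emery-Dreifuss muscular dystrophy. WT replicates 1, 2 and 3 had 142, 146 and 155 FPKM at D1 and 236, 221 and 211 FPKM at D6. The glp-1 replicates had 14.6, 14.7 and 15.5 FPKM at D1 and 19.9, 15.6 and 17.4 FPKM at D6. The genotypes were widely apart, with a mean WT level 9.90 times that of glp-1 at D1 and 12.6 times at D6, and in glp-1 the lowest D6 library was just above the highest D1 library. The log2 differences were -3.22 (SE 0.08, adjusted p = 5.72e-13) and -3.59 (SE 0.08, adjusted p = 2.13e-13) by limma.

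lem-2 (WBGene00002275; chromosome II, 14063450 to 14066646, plus strand, 3 exons, 500 codons) encodes the other membrane-spanning LEM-domain protein in the set, which overlaps with emerin in function in worms. WT replicates had 95.3, 92.4 and 95.2 FPKM at D1 and 157, 176 and 177 FPKM at D6. The glp-1 replicates had 9.47, 11.1 and 10.3 FPKM at D1 and 13.3, 11.2 and 13.4 FPKM at D6. lem-2 lay below emr-1 in every library, and its mean WT level was 9.16 times that of glp-1 at D1 and 13.5 times at D6. The log2 differences of glp-1 from WT were -3.08 (SE 0.08, adjusted p = 9.42e-13) at D1 and -3.65 (SE 0.08, adjusted p = 2.24e-13) at D6 by limma.

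baf-1 (WBGene00000235; chromosome III, 9467464 to 9468058, plus strand, 2 exons, 89 codons) encodes BAF and had the highest level of the 7 genes in all 4 groups. WT replicates had 290.4, 294 and 303 FPKM at D1 and 376, 362 and 365 FPKM at D6. The glp-1 replicates had 93.3, 92.2 and 89.3 FPKM at D1 and 78.7, 95.1 and 103 FPKM at D6. The genotypes did not overlap, and glp-1 at D6 was the group with the widest spread, its replicate 1 below and its replicates 2 and 3 above the D1 mean. The log2 difference was -1.68 (SE 0.08, adjusted p = 1.71e-10) at D1 and -1.99 (SE 0.08, adjusted p = 2.3e-11) at D6 by limma.

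unc-84 (WBGene00006816; chromosome X, 13584775 to 13589821, plus strand, 10 exons, 1111 codons), the SUN gene of somatic cells, differed least between the genotypes among the 7 genes. WT replicates had 28.2, 29.6 and 26.1 FPKM at D1 and 33.3, 40.8 and 38.5 FPKM at D6. The glp-1 replicates had 16.8, 18.5 and 18.3 FPKM at D1 and 23.0, 19.3 and 20.3 FPKM at D6. All glp-1 libraries lay below all WT libraries, by a log2 difference of -0.62 (SE 0.09, adjusted p = 3.17e-05) at D1 and -0.81 (SE 0.09, adjusted p = 1.86e-06) at D6 by limma. The direction of unc-84 depended on the scaling, since after quantile normalization its difference was 0.43 (adjusted p = 0.00132) at D1 and 0.18 (adjusted p = 0.106) at D6.

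sun-1 (WBGene00006311; chromosome V, 13191700 to 13193538, minus strand, 5 exons, 473 codons), the SUN gene of the germline, was close to absent from glp-1. WT replicates had 81.3, 79.96 and 85.1 FPKM at D1 and 104.3, 98.7 and 97.4 FPKM at D6. In glp-1 at D1 replicates 1 and 2 had 0.0744 and 0.0368 FPKM and replicate 3 was listed at 0. In glp-1 at D6 replicates 1 and 3 had 1.602 and 1.30 FPKM while replicate 2 had 0.171 FPKM. The log2 differences were -6.32 (SE 0.22, adjusted p = 8.33e-12) at D1 and -5.72 (SE 0.22, adjusted p = 1.67e-11) at D6 by limma, and the added 1 FPKM shrinks both.

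zyg-12 (WBGene00006997; chromosome II, 4949900 to 4953492, plus strand, 9 exons, 777 codons) encodes the KASH partner of SUN-1, a protein of the Hook family that binds dynein. WT replicates had 64.7, 61.6 and 67.6 FPKM at D1 and 81.8, 81.4 and 74.6 FPKM at D6. The glp-1 replicates had 10.4, 10.7 and 8.52 FPKM at D1 and 9.08, 8.66 and 11.2 FPKM at D6. zyg-12 was close to sun-1 in WT and far above it in glp-1, where a level near 10 FPKM remained in every library. The log2 differences were -2.60 (SE 0.10, adjusted p = 3.07e-11) at D1 and -2.92 (SE 0.10, adjusted p = 7.34e-12) at D6 by limma.

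All 7 genes were therefore lower in glp-1 at both ages, against a background in which 48.1% of the 13614 genes tested were lower and 41.3% higher at D1, and 45.4% lower and 44.4% higher at D6 (89.4% and 89.8% called in all). With so many genes called, the call itself says little about these 7 genes, and their sizes say more. How many of all genes tested had no overlap between the genotypes was not counted, so that separation does not set the 7 genes apart. The median log2 difference over the 7 genes was -2.60 at D1 and -2.92 at D6, beside medians of -0.15 and -0.03 over all genes tested. When libraries were scaled to the muscle and neuron marker genes, the median of all genes moved to -0.95 at D1 and -1.04 at D6, and the 7 genes ran from -1.61 (unc-84) to -6.61 (sun-1) at D1. After quantile normalization the all-gene medians were 0.35 and 0.21, and 6 genes other than unc-84 stayed lower at both ages. Relative to the all-gene median, lmn-1 at D1 was at -1.92 as deposited, -2.15 with muscle and neuron scaling and -1.95 with quantile normalization. unc-84 did not keep its place, going from -0.47 to 0.077 at D1 and from -0.78 to -0.026 at D6 with quantile normalization, and to -1.22 at D6 with muscle and neuron scaling.

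**Figure D2:**
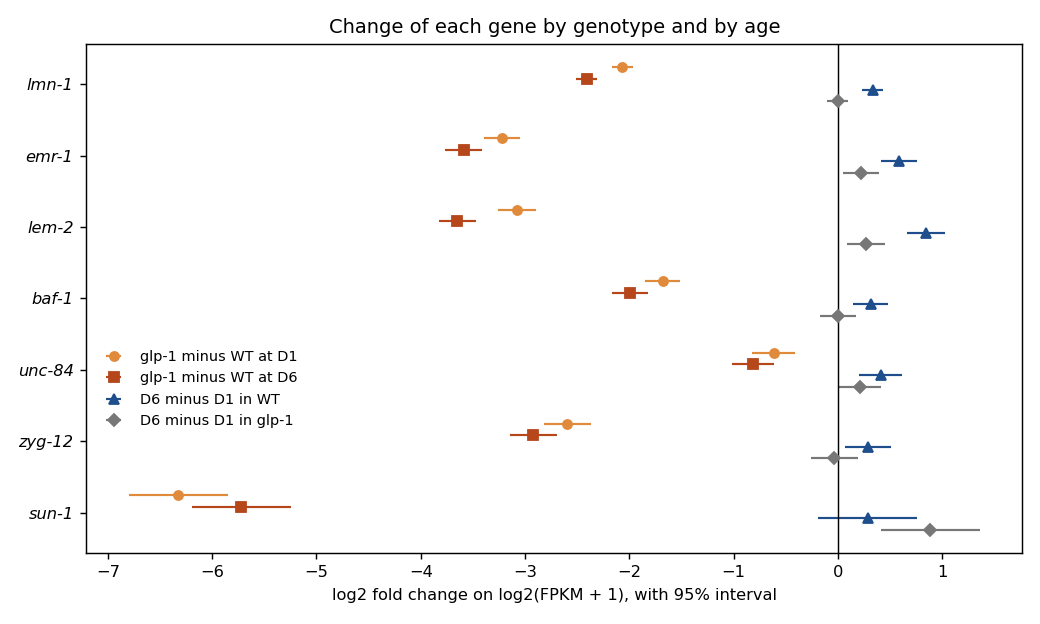
Log2 difference of each gene with its 95% interval from limma, between genotypes at each age and between ages in each genotype. Genotype differences run from -0.62 (unc-84, D1) to -6.32 (sun-1, D1), while differences with age lie between 0.28 and 0.84 in WT.

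The order of the mean levels changed between the genotypes and was the same at both ages within each. In WT it was baf-1, lmn-1, emr-1, lem-2, sun-1, zyg-12 and unc-84 from high to low, and no neighbours in that order overlapped. In glp-1 it was baf-1, lmn-1, unc-84, emr-1, lem-2, zyg-12 and sun-1, with unc-84 rising from the last place to just after lmn-1. Some neighbours in glp-1 did not differ beyond their spread, namely lem-2 and zyg-12 at D1 (9.47 to 11.1 against 8.52 to 10.7 FPKM) and unc-84 and emr-1 at D6 (19.3 to 23.0 against 15.6 to 19.9 FPKM). At D6 the lowest lem-2 library and the highest zyg-12 library both had 11.2 FPKM.

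Ratios of 2 of the genes within a library show which genes kept their proportion. An FPKM ratio does not depend on a factor common to the library, but the tested ratios are of FPKM + 1 and do for genes at low levels, here sun-1 in glp-1. Each ratio was tested between genotypes with an exact 2-sided permutation of the genotype labels within each age over all 12 libraries, which can reach no p below 0.005, with Benjamini-Hochberg adjustment over 6 ratios. The germline and somatic SUN genes traded places. The FPKM ratio of sun-1 to unc-84 was 2.42 to 3.26 over the 6 WT libraries and 0 to 0.0695 over the 6 glp-1 libraries, a log2 difference of -5.31 (exact p = 0.005, adjusted p = 0.006).

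zyg-12 and its partner sun-1 kept a nearly constant proportion in WT, with FPKM ratios of 0.766 to 0.825, and parted in glp-1. There the ratio was 140.5 and 291 in D1 replicates 1 and 2, with no value in replicate 3, where sun-1 was listed at 0, and 5.67, 50.6 and 8.58 in D6 replicates 1, 2 and 3. The log2 difference between genotypes was 3.27 (exact p = 0.005, adjusted p = 0.006), a size set by the added 1 FPKM, since with 0.1 FPKM added it was 5.19. With 0.1 FPKM added, that of sun-1 to unc-84 was -7.32. lmn-1 relative to unc-84 fell by 1.52 on the log2 scale in glp-1 (exact p = 0.005, adjusted p = 0.006), from an FPKM ratio of 6.59 to 8.32 in WT to 2.19 to 3.06.

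The lamin gene and the emerin gene did not move in proportion. lmn-1 was 1.16 to 1.51 times emr-1 in WT libraries and 2.53 to 3.51 times in glp-1 libraries, a log2 difference of 1.17 (exact p = 0.005, adjusted p = 0.006). The ratio of baf-1 to lmn-1 also rose in glp-1, by 0.40 on the log2 scale (exact p = 0.005, adjusted p = 0.006), with FPKM ratios of 1.34 to 1.40 in WT and 1.56 to 2.06 in glp-1. The pair of LEM-domain genes behaved otherwise, since lem-2 was 0.613 to 0.839 times emr-1 over all 12 libraries and the genotypes overlapped, with a log2 difference of 0.04 (exact p = 0.575, adjusted p = 0.575). That value averages differences of opposite sign, 0.14 at D1 and -0.06 at D6, and a test that does not pass does not show a constant proportion.

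**Figure D3:**
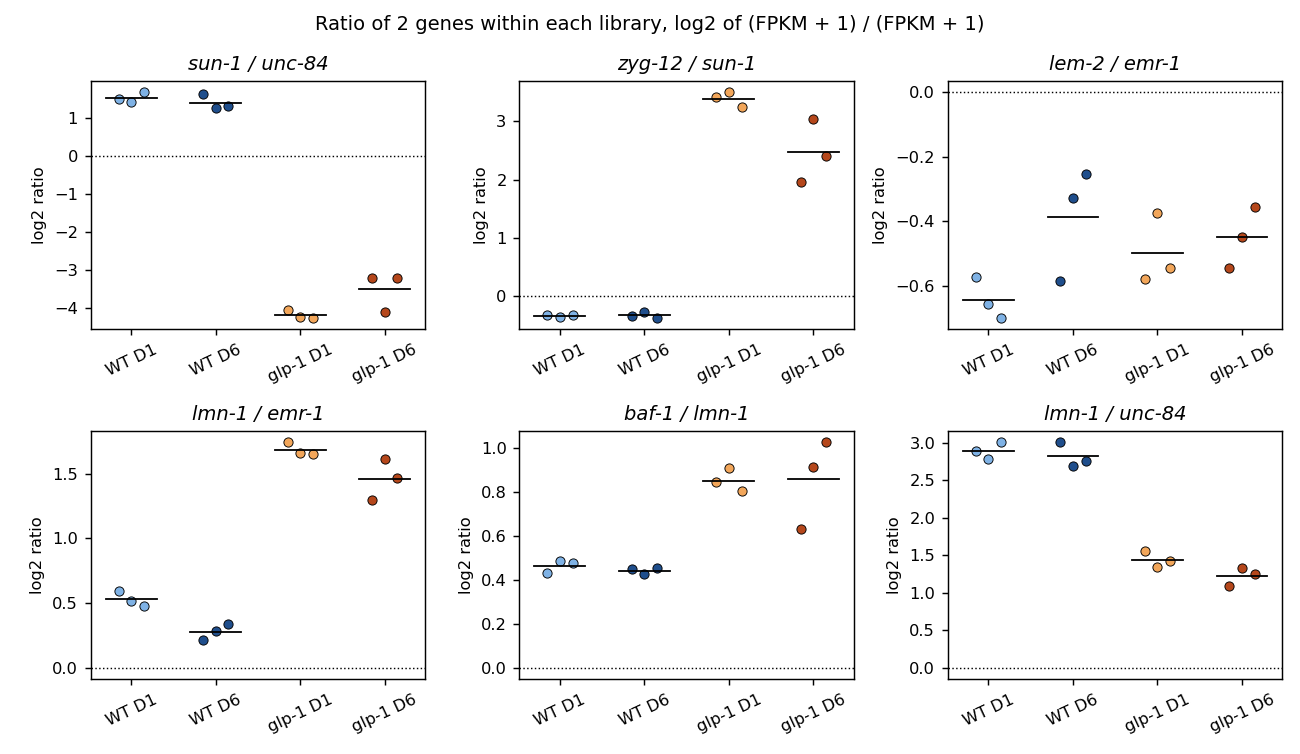
Log2 ratio of (FPKM + 1) for 6 pairs of genes within each library, with the group mean as a line. The genotypes are apart for 5 pairs, most for sun-1 to unc-84 (means 1.52 and 1.40 in WT, -4.18 and -3.51 in glp-1), and overlap for lem-2 to emr-1.

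Expressed as a percentage of the WT mean, the glp-1 mean at D1 was 63.9 ± 5.18% for unc-84, 30.9 ± 0.963% for baf-1, 23.5 ± 0.782% for lmn-1, 15.3 ± 1.99% for zyg-12, 10.9 ± 0.895% for lem-2 and 10.1 ± 0.556% for emr-1 (propagated SD, n = 3 per group). At D6 each of these percentages was lower, from 55.7 ± 7.71% for unc-84 and 18.6 ± 0.313% for lmn-1 to 7.92 ± 1.07% for emr-1 and 7.43 ± 0.879% for lem-2. Single glp-1 libraries overlapped between ages for unc-84, at 60.1 to 66.1% (D1) and 51.5 to 61.4% (D6) of the WT mean. They also did for zyg-12, at 13.2 to 16.6% and 10.9 to 14.1%. Muscle and neuron scaling lowered the percentages of the glp-1 means by more than their SDs, to 30.9% for unc-84, 14.9% for baf-1 and 11.3% for lmn-1 at D1 and to 19.9%, 8.96% and 6.60% at D6. sun-1 was at 0.0906%, 0.0449% and 0% in D1 replicates 1, 2 and 3 and at 1.6%, 0.171% and 1.30% at D6. These values put sun-1 among germline genes, whose list of 30 had a median of 0.114% at D1 and 0.799% at D6. The other 6 genes lay between the medians of the germline list, whose highest gene was at 21.9% at D1 and 37.1% at D6, and those of the somatic lists, which were 271% and 505% (muscle) and 232% and 335% (neuron) at D1 and D6.

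The germline list itself differed between D6 glp-1 libraries, with median percentages of 1.43%, 0.198% and 0.748% in replicates 1, 2 and 3. The replicates were in the same order for sun-1. At D1 the germline medians were 0.120%, 0.0909% and 0.131%. Genes of the cell cycle, a list of 25, were all lower in glp-1, beside 48.1% (D1) and 45.4% (D6) of all genes tested. Their median percentages were 0.628% at D1 and 1.11% at D6, well below every one of the 7 genes other than sun-1. The highest gene of that list, his-72, was at 11.4% at D1 and 14.6% at D6, above emr-1 and lem-2 at both ages. The part of germline or dividing cells in the values of the other 6 genes was not tested.

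**Figure D4:**
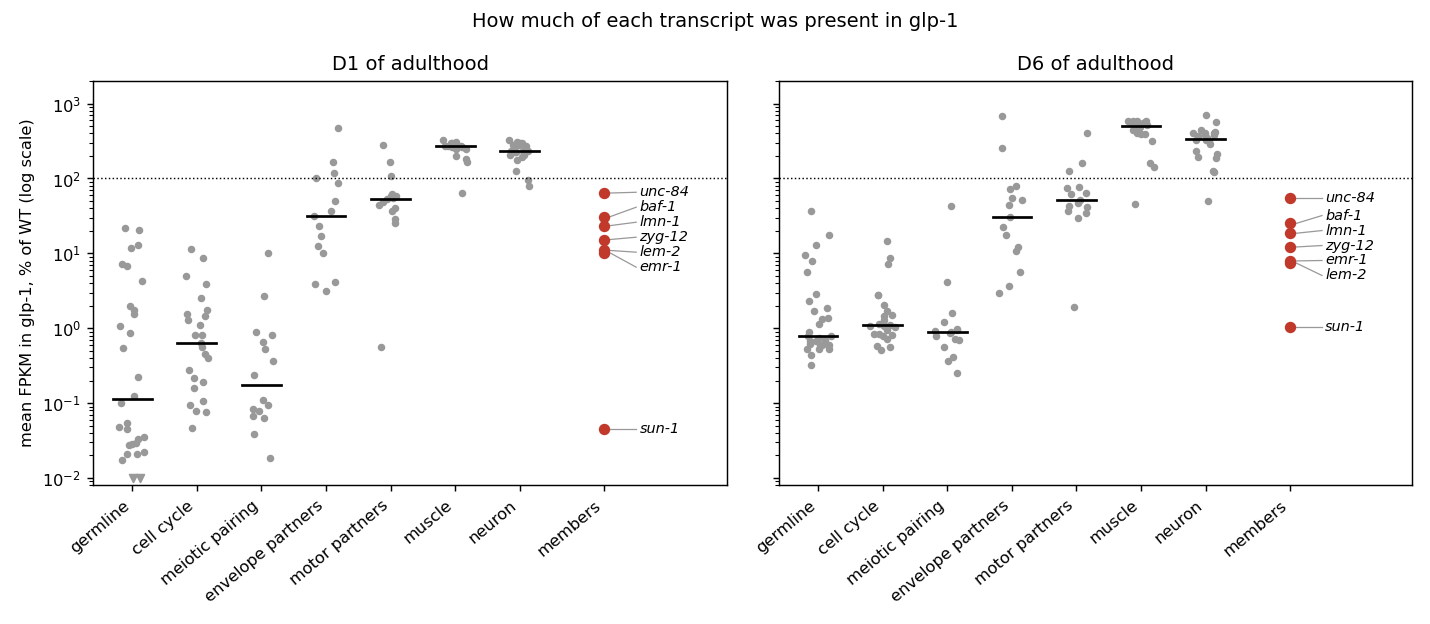
Mean FPKM in glp-1 as a percentage of WT, on a log axis, for the 7 genes (right, named) and for 7 gene lists (grey points, with the median as a line). Triangles at the bottom stand for germline genes below the axis, and the dotted line is 100%. sun-1 lies among the germline, cell cycle and meiotic genes, and the other 6 lie between the medians of these lists and those of the muscle and neuron lists, with single genes of the lists above or below them.

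With age, 6 of the 7 genes were higher in WT at D6 than at D1, where 35.1% of all genes tested were higher and 22.7% lower (57.7% called in all). All 3 D6 WT libraries lay above all 3 D1 WT libraries for every one of the 7 genes, sun-1 included. How many of all genes tested were separated in this way was not counted, so this does not set the 7 genes apart. The largest rise was that of lem-2, 1.80 times in FPKM and 0.84 on the log2 scale (SE 0.08, adjusted p = 3.15e-06, limma). emr-1 rose by 0.59 (SE 0.08, adjusted p = 5.73e-05), unc-84 by 0.41 (SE 0.09, adjusted p = 0.00247), lmn-1 by 0.33 (SE 0.05, adjusted p = 5.98e-05) and baf-1 by 0.31 (SE 0.08, adjusted p = 0.00468) in the same limma fit. zyg-12 rose by 0.29 (SE 0.10, adjusted p = 0.0289), and this call was lost without WT D1 replicate 1 or 2 or WT D6 replicate 1 or 2 (adjusted p between 0.0626 and 0.0904), in TPM (adjusted p = 0.05001) and after quantile normalization (0.04, adjusted p = 0.815). The last setting also ended the call of unc-84 (0.21, adjusted p = 0.111).

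sun-1 differed by 0.28 between ages in WT and did not pass (SE 0.22, adjusted p = 0.285, limma), although its fold of 1.22 was close to that of zyg-12 and baf-1. The spread of that fit is shared with glp-1, whose D6 replicate 2 was far from its fellows, and without that library the adjusted p was 0.0126. Fitted on the WT groups alone, it was 0.0016. The median log2 difference over the 7 genes was 0.33, beside 0.13 over all genes, and muscle and neuron scaling raised these to 0.78 for all genes and to between 1.01 and 1.57 for the 7 genes. Muscle markers were lower at D6 in WT in 19 of 20 cases, beside 22.7% of all genes tested. The part of muscle markers in the differences of the 7 genes was not tested.

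In glp-1, lmn-1 and baf-1 did not differ between ages beyond their spread in the values as deposited. Their log2 differences were -0.00 (95% interval -0.10 to 0.10) and 0.00 (-0.17 to 0.17), and zyg-12 differed by -0.04 (-0.26 to 0.19). For lmn-1 the scaling decided the call in both directions, since it was lower at D6 with median-ratio scaling (-0.19, adjusted p = 0.0107) and quantile normalization (-0.20, adjusted p = 0.00226) and higher with muscle and neuron scaling (0.28, adjusted p = 0.0193) by limma. 3 genes were higher at D6, where 39.1% of all genes tested were higher and 54.7% were called in either direction. They were lem-2 at 0.27 (SE 0.08, adjusted p = 0.0147), emr-1 at 0.22 (SE 0.08, adjusted p = 0.0352) and sun-1 at 0.89 (SE 0.22, adjusted p = 0.00411) by limma. The added 1 FPKM shrinks the sun-1 difference, as its levels in glp-1 were near the floor at both ages. Its mean FPKM at D6 was 27.7 times that at D1, and its log2 difference ran from 0.18 to 2.70 over the alternatives. unc-84 was 0.21 higher without passing (adjusted p = 0.0720), although its D6 libraries lay above its D1 libraries.

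The calls of emr-1 and lem-2 in glp-1 rested on single libraries, while sun-1 passed with any 1 library left out. emr-1 and lem-2 no longer passed in limma without D6 replicate 1 (adjusted p = 0.155 and 0.0544), D6 replicate 3 (adjusted p = 0.0614 and 0.0557) or D1 replicate 1 (adjusted p = 0.0868 and 0.0624), nor emr-1 without D1 replicate 2 (adjusted p = 0.0843). Neither passed with median-ratio scaling (0.04 and 0.10) or in a fit on the 2 glp-1 groups alone (adjusted p = 0.0957 and 0.0589). With D6 replicate 2 as the only D6 library of glp-1, which is then assumed to vary like the other groups, none of the 7 genes passed in limma, and sun-1 differed by 0.18 (adjusted p = 0.228). Replicate 2 is also the D6 glp-1 library with the lowest median of germline genes, 0.198% of WT, and the part of these genes' cells in the result was not tested. In all, 22 of 30 germline genes and 15 of 25 cell cycle genes were higher at D6 than at D1 in glp-1, beside 39.1% of all genes tested. The direction of emr-1 depended on the scaling, since after quantile normalization it differed by -0.028. That normalization also called zyg-12 lower at D6 (-0.32, adjusted p = 0.031, limma).

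The change with age itself differed between the genotypes for 4 genes, each with a smaller change in glp-1 than in WT. Over all genes tested, 16.6% were called with a negative difference of this kind and 47.5% were called in either direction. The difference, which is the age change in glp-1 minus that in WT, was -0.57 for lem-2 (SE 0.12, adjusted p = 0.00159), -0.34 for lmn-1 (SE 0.07, adjusted p = 0.0011), -0.37 for emr-1 (SE 0.11, adjusted p = 0.0189) and -0.31 for baf-1 (SE 0.11, adjusted p = 0.0361) in the interaction term of limma. In TPM emr-1 (-0.29, adjusted p = 0.0592) and baf-1 (-0.24, adjusted p = 0.0801) did not pass. baf-1 was the least stable of these, its adjusted p lying between 0.0531 and 0.073 in 7 of the 12 fits that left out 1 library. For unc-84 the term was -0.20 (adjusted p = 0.24) and for zyg-12 -0.32 (adjusted p = 0.0843), and both passed with median-ratio scaling (adjusted p = 0.028 and 0.00829) and with muscle and neuron scaling (adjusted p = 0.00109 and 0.0037). zyg-12 also passed without glp-1 D1 replicate 3 or D6 replicate 3 (adjusted p = 0.0267 and 0.0206). For sun-1 it was 0.60 (adjusted p = 0.127), and without glp-1 D6 replicate 2 it was 0.96 (adjusted p = 1.03e-04), while it was -0.31 (adjusted p = 0.351) with muscle and neuron scaling. The size of the sun-1 term also depends on the added 1 FPKM, and it reached 2.41 among the alternatives.

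Within a library, the ratio of lmn-1 to emr-1 was lower at D6 than at D1 by 0.24 on the log2 scale over both genotypes (exact permutation of age within genotype, 2-sided, p = 0.005, adjusted p = 0.03 over 6 ratios). FPKM ratios fell from 1.40 to 1.51 at D1 to 1.16 to 1.26 at D6 in WT, and from 3.28 to 3.51 to 2.53 to 3.20 in glp-1, with no overlap in either. Without any 1 of the D1 glp-1 libraries the adjusted p was 0.06. The other 5 ratios did not pass, with adjusted p between 0.12 and 0.875 and log2 differences from -0.46 (zyg-12 to sun-1) to 0.27 (sun-1 to unc-84).

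Genes that act with these 7 at the envelope were read from a list of 17, of which 15 passed the filter and tor-1 and tor-2 did not. In glp-1, 3 were higher and 11 lower at D1, beside 41.3% and 48.1% of all genes tested. At D6, 2 were higher and 13 lower, beside 44.4% and 45.4% of all genes tested. The median log2 differences of the list were -1.61 at D1 and -1.63 at D6. With age, 8 were higher and 3 lower in WT and 6 higher and 2 lower in glp-1, which quantile normalization turned to 5 and 5 and to 2 and 4. Of all genes tested, 35.1% were higher and 22.7% lower in WT, and 39.1% higher and 15.6% lower in glp-1. The counts in glp-1 were thus near the share over all genes. The KASH partners of UNC-84 went the other way from the 7 genes. anc-1, a giant KASH protein that anchors nuclei, had 4.65 to 5.22 FPKM in WT and 22.6 to 25.1 FPKM in glp-1 at D1, a log2 difference of 2.04 (SE 0.13, adjusted p = 3.93e-09, limma), and 2.52 at D6. unc-83, whose product moves nuclei by recruiting motors, had 17.2 to 18.7 FPKM in WT and 28.7 to 30.4 FPKM in glp-1 at D1, a difference of 0.70 (SE 0.09, adjusted p = 5.34e-06), and 1.31 at D6, but it was at -0.31 and -0.11 with muscle and neuron scaling.

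The largest differences of the list were those of nemp-1, vrk-1 and cec-4. vrk-1, the kinase that releases BAF from chromatin, had 62.6 to 74.8 FPKM in WT and 2.21 to 2.98 FPKM in glp-1 at D1, a log2 difference of -4.22 (SE 0.12, adjusted p = 1.2e-12, limma). lem-4, which promotes BAF dephosphorylation, differed by -3.06 at D1 and -2.42 at D6, and its level in glp-1 was higher at D6 than at D1, by 1.31 (SE 0.12, adjusted p = 1.35e-06). cec-4, a chromodomain protein that anchors methylated heterochromatin at the periphery, differed by -4.20 at D1 and -3.82 at D6. nemp-1, an inner membrane protein, differed by -4.67 and -4.87, and samp-1, another one, by -2.87 and -3.11.

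The rest of the list was spread between these. chmp-7, an ESCRT protein that seals the envelope, differed by -2.45 and -2.93, the torsin ooc-5 by -2.05 and -2.08, and the LEM-domain nuclease lem-3 by -1.61 and -1.16 at D1 and D6. The CAAX protease gene fce-2 differed by -1.35 and -1.63, and cnep-1, a phosphatase that acts on lipin, by -0.98 and -0.83. Small differences followed the scaling. The KASH gene kdp-1 was at 0.22 (adjusted p = 0.0135) at D1 and -0.98 at D6, the lipin gene lpin-1 at 0.01 and -0.33 and the CAAX protease gene fce-1 at -0.21 and -0.45, and each had the other sign under muscle and neuron scaling or quantile normalization for at least 1 age.

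**Figure D5:**
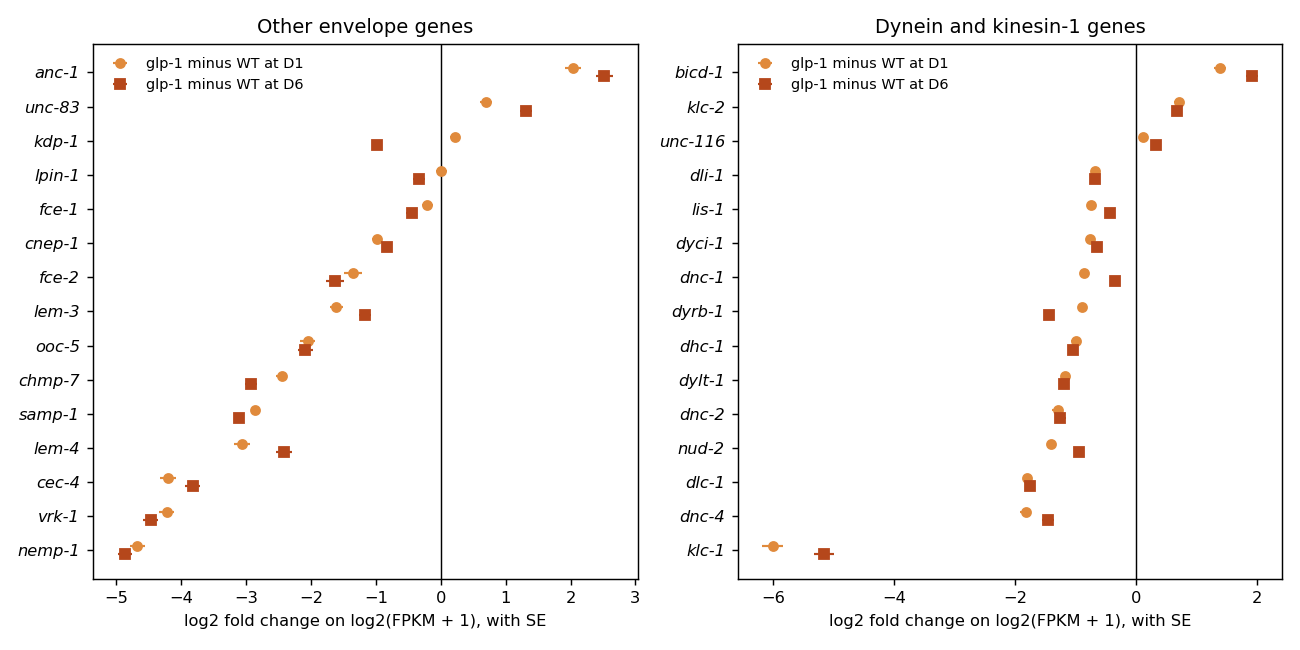
Log2 difference of glp-1 from WT with its SE for the envelope and motor partner genes at D1 and D6. anc-1, unc-83, bicd-1, klc-2 and unc-116 lie above 0 at both ages, while klc-1, nemp-1, vrk-1 and cec-4 lie below -3 at both. Also below -3 are lem-4 at D1 (-3.06) and samp-1 at D6 (-3.11).

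The motors that LINC complexes recruit made a list of 15, of which 3 were higher and 12 lower at each age. Over all genes tested, 41.3% were higher and 48.1% lower at D1, and 44.4% higher and 45.4% lower at D6. The median log2 difference of the list was -0.89 at D1 and -0.94 at D6. That median fell to -0.04 and -0.02 after quantile normalization, with 3 higher and 7 lower at D1 and 6 higher and 7 lower at D6. bicd-1, a dynein adaptor that works with UNC-83, was higher by 1.39 at D1 and 1.92 at D6. Kinesin-1 light chains moved apart. klc-1 had 93.3 to 108 FPKM in WT and 0.38 to 0.732 FPKM in glp-1 at D1, a difference of -6.01 (SE 0.17, adjusted p = 1.44e-12, limma), while klc-2 was higher by 0.71 at D1 and 0.68 at D6 but lower by muscle and neuron scaling, at -0.31 and -0.78. The kinesin-1 heavy chain unc-116 was higher by 0.13 and 0.33, and lower by the same scaling at -0.91 and -1.15. dnc-4, a dynactin subunit, differed by -1.82 and -1.45. With age, 10 of the 15 motor genes were higher in WT and 12 in glp-1, and none was lower in the values as deposited. Of all genes tested, 35.1% were higher in WT and 39.1% in glp-1.

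Genes of a list on meiotic pairing were all lower in glp-1, 16 of 16 at both ages. Over all genes tested, 48.1% were lower at D1 and 45.4% at D6. The median log2 differences of the list were -5.17 at D1 and -5.65 at D6. him-3, a component of the meiotic chromosome axis, differed by -6.26 and -6.07. The polo kinase plk-1, which is also in the cell cycle list, differed by -7.32 and -6.54. All 8 genes of a list on peripheral heterochromatin were lower too, with medians of -2.97 and -3.0, and mrg-1, a chromodomain protein, differed by -4.25 and -4.58 and arle-14 by -3.64 and -3.94. In WT, 10 of the 16 meiotic genes and 7 of the 8 heterochromatin genes were higher at D6 and none lower. In glp-1, 8 and 3 were higher and none lower, but 1 heterochromatin gene was higher and 1 lower with median-ratio scaling and with quantile normalization. Over all genes tested, 35.1% were higher with age in WT and 39.1% in glp-1, and the heterochromatin count in glp-1 was near that share.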

How the data were processed

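Whole-worm RNA was sequenced on an Illumina NovaSeq from NEBNext Ultra libraries, per the labels' protocols. The authors deposited FPKM per gene and library, with no counts, so intervals for counting error are not given; the files name no program for the FPKM. HISAT2 2.0.4, DESeq2 1.6.3 and WBcel235 are named in the submitters' processing notes. For the annotation release and strand, the sources used here give nothing. No annotated gene overlaps any of the 7 genes. Depth was estimated from the steps between low FPKM values and is approximate.

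Of 20257 genes, 13614 had at least 1 FPKM in at least 3 libraries, and 6643 were not tested. limma 3.58.1 (R 4.3.3, trend and robust) was fitted to log2(FPKM + 1) over all 4 groups with 8 residual degrees of freedom, with genes called at a Benjamini-Hochberg adjusted p below 0.05 over all genes tested. The fit was run on simulated data in which a small part of the genes changed in a single group. Far more genes were called here, so that run does not check these calls. Ratios were tested by exact permutation over 400 arrangements. Replicate numbers did not pair the libraries: of 18 same-numbered pairs, 1 had a correlation of deviations above 0.1 (range -0.144 to 0.146), so the fit without a block was kept.

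The 7 genes and the lists were chosen with earlier results of these data known. The lists were envelope partners, motor partners, meiotic pairing, peripheral heterochromatin, germline, cell cycle, sperm, muscle, neuron, intestine, epidermis, pharynx and somatic gonad. Named are the 7 genes with every value, all envelope partners, and, from other lists, the genes with the largest rise and fall at D1 or called against the majority, with the genes of nearest profile; lists outside the envelope are given mainly by counts. kdp-1, chmp-7, nemp-1 and arle-14 are listed in the files under sequence names and were matched through RefSeq's gene table. Alternatives were another pseudocount, no filter, 4 scalings, limma without trend, the 2 groups alone, a replicate block and each library left out.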

Additional observations from a re-analysis of the deposited data

Results flagged for a closer look

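The interaction term of limma was called for 4 of the 7 genes, each with a smaller change with age in glp-1 than in WT. Over all genes tested, 16.6% were called with a negative term and 47.5% in either direction. In TPM the terms of emr-1 and baf-1 did not pass (adjusted p = 0.0592 and 0.0801, limma). The age change in glp-1 minus that in WT was -0.34 for lmn-1, which rose in WT by 0.33 and was at -0.00 in glp-1, and -0.31 for baf-1, which rose in WT by 0.31 and was at 0.00 in glp-1. It was -0.37 for emr-1 (0.59 in WT, 0.22 in glp-1) and -0.57 for lem-2 (0.84 in WT, 0.27 in glp-1). The groups hold 3 libraries each, too few for a search for outlying samples.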

How the results depend on the processing

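Of 798 changes of single genes recomputed under the alternatives, 724 kept their direction and their side of the threshold, 33 no longer passed, 20 newly passed and 21 changed sign. Of the last, 17 passed in neither fit, 15 of them with age in glp-1 and 2 the interaction of sun-1. The others were unc-84 after quantile normalization (0.43 at D1, 0.18 at D6), emr-1 with age in glp-1 after quantile normalization (-0.028) and lmn-1 with age in glp-1 with muscle and neuron scaling (0.28). Quantile normalization also gave 1 of the 7 genes as higher in glp-1 at D1. With age in glp-1, 3 of the 7 genes were called, all higher; 5 were with muscle and neuron scaling, 1 in the 2 groups alone, 1 to 4 with a library left out and 0 with D6 replicate 2 alone, an alternative chosen after seeing the data. Median-ratio scaling called 1 higher and 1 lower there, and quantile normalization 1 higher and 2 lower. In the interaction, 4 genes were called, 2 in TPM, and 1 gene was called in the other direction with a pseudocount of 0.1, with quantile normalization and without glp-1 D6 replicate 2 (0 to 1 over libraries left out).

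With muscle and neuron scaling, higher and lower calls went from 5624 and 6543 to 2499 and 7873 at D1, from 6045 and 6176 to 3378 and 7788 at D6, from 4773 and 3085 to 9121 and 1496 with age in WT, from 5318 and 2126 to 6683 and 1192 with age in glp-1, and from 4205 and 2263 to 2091 and 5157 in the interaction. Quantile normalization gave 3350 and 3291 with age in glp-1 and 2860 and 3146 in the interaction, and median-ratio scaling 3787 and 2883, and 3222 and 3383. Muscle and neuron scaling lowered the glp-1 level as a percentage of WT at D1 to 11.3% (lmn-1), 4.86% (emr-1), 5.26% (lem-2), 14.9% (baf-1), 30.9% (unc-84) and 7.38% (zyg-12), and at D6 to 6.60%, 2.81%, 2.65%, 8.96%, 19.9% and 4.33%. It uses genes that themselves differ between groups.

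The ratios, tested at 1 age alone, could reach no exact p below 0.1. The differences at D1 and D6 were -5.71 and -4.91 (sun-1 to unc-84), 3.73 and 2.80 (zyg-12 to sun-1), 1.15 and 1.18 (lmn-1 to emr-1), 0.39 and 0.42 (baf-1 to lmn-1) and -1.45 and -1.59 (lmn-1 to unc-84). For lem-2 to emr-1 they were 0.14 and -0.06. With a library left out, the differences with age ranged from -0.28 to -0.20 for lmn-1 to emr-1, from -0.60 to -0.33 for zyg-12 to sun-1 and from -0.19 to -0.11 for lmn-1 to unc-84, the latter pair passing without WT D6 replicate 2 and WT D6 replicate 1, respectively (adjusted p = 0.045 each). Ratios with sun-1 have no value without a pseudocount, and the interaction none in 2 groups.

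With the replicate number as a block, counts of the 7 genes called were 7, 7, 6, 3 and 4 for glp-1 at D1, glp-1 at D6, age in WT, age in glp-1 and the interaction, as without it, and 4 of 18 comparisons of a library with another group were best with its own number. Where a cause of such a change is not shown by the construction of the alternative, it was not tested. Without counts, the error of low values such as sun-1 in glp-1 is unknown.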

Other observations

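Markers of other tissues were as follows. In glp-1 against WT at D1, 11 of 13 intestinal genes were higher and 1 lower (ges-1, a gut esterase, at 2.2), 8 of 13 epidermal genes were higher and 4 lower (mup-4 at 1.78, elt-1 at -2.96), 7 of 9 pharyngeal genes were higher and 1 lower, and the somatic gonad list held 9 higher and 1 lower of 10 (nid-1, nidogen, at 2.08). Sperm genes were lower in 11 of 11 cases at D1 and higher in 3 and lower in 4 at D6. At D6 the counts were 12 higher and 1 lower (intestine), 8 and 3 (epidermis), 9 and 0 (pharynx) and 9 and 1 (somatic gonad). Over all genes tested, 44.4% were higher and 45.4% lower at D6. With muscle and neuron scaling the epidermal and pharyngeal medians at D1 turned to -0.09 and -0.13.

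Among 6685 named genes tested, those with the nearest profile over the 12 libraries, by Euclidean distance between mean-centred log2(FPKM + 1) values, were rpt-2 (0.243) and sumv-2 (0.252) for lmn-1, rtfo-1 (0.251) and ppfr-2 (0.271) for emr-1, and riok-2 (0.430) and rtfo-1 (0.431) for lem-2. They were gly-10 (0.250) and nra-2 (0.296) for baf-1, plx-1 (0.330) and pqn-53 (0.354) for unc-84, top-3 (0.339) and usp-14 (0.354) for zyg-12, and inx-14 (0.328) and bub-1 (0.394) for sun-1. rtfo-1 was thus near both LEM-domain genes, which were themselves the closest pair among the 7 genes at 0.468. The farthest pair was unc-84 and sun-1 at 9.27.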
